A study of Homo sapiens with 6 samples.

Results

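Fatty acid synthesis and desaturation was followed through 10 genes, each measured by 1 probe set on whole-transcript Affymetrix arrays of human neural stem cells given the compound X5050 or the solvent DMSO. The genes were ACLY, ACACA, FASN, ME1, ELOVL6, ELOVL5, SCD, FADS2, FADS1 and PNPLA3. They were taken by gene symbol from probe sets annotated to 1 symbol, with the brightest probe set to be used for a symbol that had several, and all 10 of the 18417 symbols tested had exactly 1. The cells were neural precursors at passage 14, derived from SA-01, a human line of embryonic stem cells, and grown as adherent cultures in a serum-free neural medium. Treatment began 5 h after plating and lasted 24 h. The X5050 group received 100 µM of the compound, which the series title calls an inhibitor of the neuronal gene repressor REST, and the DMSO group received 0.1% of the solvent. No solvent content is given for the X5050 cultures in the labels used here. Each group had 3 arrays, numbered 1 to 3 for 3 independent cultures of 1 cell line, so the results describe that line.

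Cytosolic fatty acid synthesis starts from citrate, which ACLY cleaves to acetyl-CoA. ACACA carboxylates acetyl-CoA to malonyl-CoA, and FASN joins these units to palmitate with NADPH that enzymes such as ME1 supply. ELOVL6 lengthens the saturated product, SCD places a double bond in it, and FADS2, ELOVL5 and FADS1 desaturate and lengthen polyunsaturated chains, while PNPLA3 acts on the lipids of droplets. Many of these genes, like those of cholesterol synthesis, are known targets of the SREBP transcription factors, of which SREBF1 encodes the form more tied to fatty acids and SREBF2 the form more tied to sterols. Neural precursors make much of their own membrane lipid. The comparison therefore asked which steps changed alongside the sterol genes and which did not.

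Array medians were 5.68 to 5.75 on the log2 scale, and the mean signal of a probe set had a lower quartile of 5.00 and a median of 6.26 over the 19460 tested. All 12 neural stem cell markers were measured, with SOX2 at 11.03 ± 0.042 in X5050 and 10.88 ± 0.13 in DMSO cells (SD, n = 3 each). The list's mean signal was 8.90 to 8.97 on X5050 arrays and 8.998 to 9.03 on DMSO arrays, and its members with the smallest paired p were NES, a neural filament protein (-0.42, adjusted p = 0.113 in limma), and MSI1, an RNA-binding protein (-0.23, adjusted p = 0.354). The pluripotency marker ZFP42 lay below the lower quartile, at 3.36 in X5050 and 3.35 in DMSO cells, while DPPA4 was measured at 7.88 and 8.20 there. Neuronal markers were bright (list mean 9.46 to 9.69 on X5050 and 9.33 to 9.64 on DMSO arrays), and of 9 measured SNAP25, a synaptic fusion protein, rose (0.66, adjusted p = 0.0328 in limma). Of 9 adipocyte and hepatocyte markers, cell types known for high fatty acid synthesis, 6 lay below the lower quartile and 0 passed. The smallest paired p were those of CIDEC (log2 change 0.24) and TTR (log2 change 0.22). Of 11 glial markers 1 fell, GJA1 (-0.61, adjusted p = 0.0444 in limma).

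X5050 lowered 3 of the 10 genes, the delta-6 desaturase FADS2, the malic enzyme ME1 and the lipid droplet gene PNPLA3, and none rose (limma with the culture as a block, adjusted p under 0.05 over all 19460 probe sets). Of all probe sets 0.498% passed in this fit, 0.308% by falling and 0.19% by rising. The citrate lyase ACLY and the stearoyl-CoA desaturase SCD were also lower in every culture but did not pass, and the carboxylase ACACA was higher in every culture and did not pass. Without the block 0 of 10 genes passed, as did 0% of all probe sets. At an unadjusted p under 0.05, 7 of the 10 passed with the block, against 14.5% of all probe sets, and 7 without it, against 9.37%. The arrays measure bulk RNA, so fewer cells of a type and less RNA per cell cannot be told apart. The 3 calls also depended on which probe sets were fitted, since 0 of the 10 passed when all 33297 of the table were included, and on culture 3, without which 0 passed, while FADS2 alone passed without culture 2.

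Whether or not they passed, 9 of the 10 genes were lower on average with X5050, where 47.3% of all probe sets were. In 7 genes X5050 was lower in each of the 3 cultures, against 17.5% of all probe sets, and in 1 it was higher in each, against 18% of all. The 3 X5050 values lay entirely below the 3 DMSO values for 5 genes (ACLY, SCD, FADS2, FADS1 and PNPLA3), where 7.41% of all probe sets showed this, and entirely above them for ACACA, where 7.51% of all did. The median change over the 10 genes was -0.39 log2 units, beside 0.0092 for all probe sets and -0.71 for 18 sterol genes. It was -0.41, -0.55 and -0.27 in cultures 1, 2 and 3, where the sterol genes had -0.66, -0.92 and -0.56. Both medians were lowest in culture 2. The same held for the lists, given below, of precursor supply, other NADPH supply, other carboxylation and synthesis, and beta oxidation. It did not hold for the lists of further elongation, further desaturation, droplets and regulators.

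**Figure D1:**
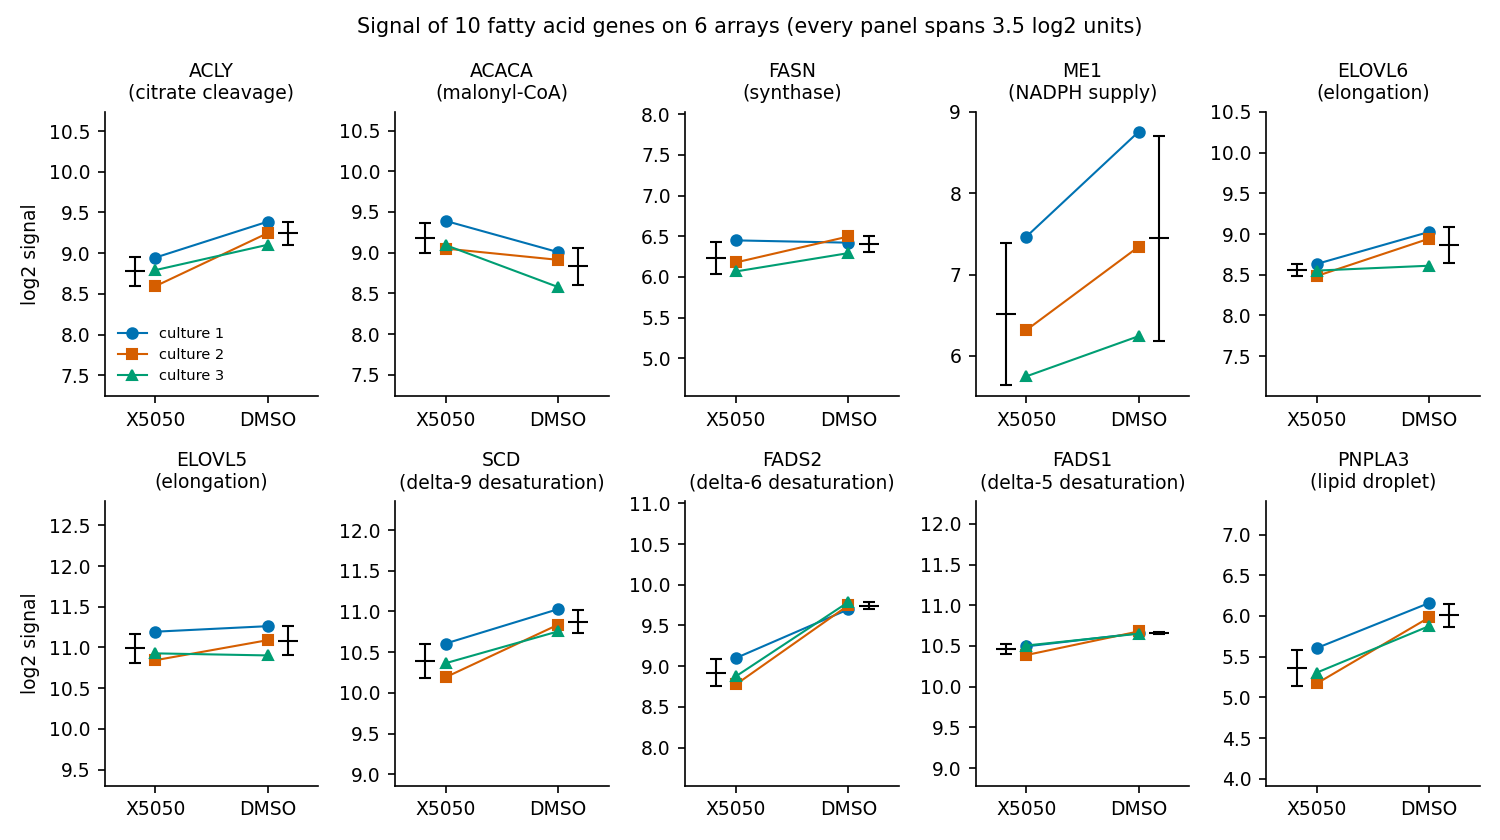
Log2 signal of the 10 genes on each array, with X5050 at the left and DMSO at the right of each panel. Lines join the arrays of 1 culture (circle 1, square 2, triangle 3), bars are mean ± SD (n = 3), and each panel has its own vertical range of equal length. The FADS2 and PNPLA3 lines run below DMSO without overlap, the ME1 lines all slope the same way but lie far apart, and the ACACA lines run the other way.

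The mean changes of the first steps of synthesis, ACLY, ACACA and FASN, differed in sign, though none of them passed with the block. The differences between them are given as descriptions. ACLY, which cleaves citrate to the acetyl-CoA used for both fatty acids and sterols, had log2 signals of 8.94, 8.59 and 8.79 in X5050 cultures 1, 2 and 3, against 9.39, 9.25 and 9.10 in the DMSO cultures. The groups did not overlap. The gene was 1.38-fold lower (log2 change -0.47, paired SE 0.099, adjusted p = 0.0891 in limma, 0.342 without the block). With a trended, robust variance prior it passed (adjusted p = 0.0429 in limma).

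ACACA, the acetyl-CoA carboxylase that commits carbon to fatty acids, had signals of 9.39, 9.05 and 9.09 in X5050 cultures and 9.01, 8.91 and 8.58 in DMSO cultures. Every X5050 value stood above every DMSO value, by the least margin for X5050 culture 2 over DMSO culture 1. The change was 1.27-fold upward (0.35, 95% interval 0.11 to 0.58, adjusted p = 0.168 in limma, 0.513 without the block), and 0.22 in the unblocked fit when DMSO culture 3 was left out. Set against ACLY, the preceding enzyme, the change of ACACA was higher by 0.83, 0.79 and 0.83 log2 units in the 3 cultures, a mean of 0.81 ± 0.020 (SD, n = 3). These differences were alike in size across cultures although the changes of each gene were not. Their SD was the smallest of 5 such differences between members given here, the others having 0.12 to 0.20. Both changes were lowest in culture 2, and a shift that both genes share cancels in the difference.

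FASN, the multifunctional synthase, was close to the median brightness of the array, with 6.45, 6.18 and 6.07 in X5050 and 6.42, 6.50 and 6.29 in DMSO cells. The groups overlapped and culture 1 showed almost no difference. Its change was -0.17 (95% interval -0.40 to 0.057, adjusted p = 0.499 in limma), so neither a decrease nor equal levels could be told from these arrays. It was -0.27 without culture 1 and -0.099 without culture 2, and in the unblocked fit -0.28 when X5050 culture 1 and -0.090 when X5050 culture 3 was left out. The change of FASN was lower than that of ACACA by a mean of -0.52 ± 0.20 (SD, n = 3), and lower in all 3 cultures.

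ME1, the cytosolic malic enzyme that makes NADPH while turning malate to pyruvate, had the lowest mean change of the 10 genes. Its signals were 7.47, 6.32 and 5.75 in X5050 cultures, against 8.76, 7.34 and 6.24 in DMSO cultures. Each X5050 culture was below its own DMSO culture, yet the groups overlapped widely, since X5050 culture 1 exceeded DMSO cultures 2 and 3. Among DMSO cultures alone ME1 spanned 2.51 log2 units (5.71-fold), and only 0.164% of probe sets had a larger SD over the DMSO arrays than its 1.26. The within-culture changes were -1.29, -1.02 and -0.49, or 2.45-fold, 2.03-fold and 1.41-fold lower. On average ME1 fell by 0.94, or 1.91-fold (SE 0.14 with the block, adjusted p = 0.0444 in limma), while without the block the same mean had a 95% interval of -2.43 to 0.56 (adjusted p = 0.748). In the unblocked fit single arrays moved this mean: leaving out X5050 culture 1 gave -1.41 and X5050 culture 3 gave -0.56, while leaving out DMSO culture 1 gave -0.28 and DMSO culture 3 gave -1.54.

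Mesenchymal and oxidant defence genes are given by culture beside ME1. The 12 mesenchymal markers had mean signals of 7.83, 6.69 and 6.95 in X5050 and 8.26, 7.07 and 7.0003 in DMSO cultures 1, 2 and 3, with 9 of 12 lower on average and none below the lower quartile. LUM, a collagen-binding matrix protein, fell (-1.09, adjusted p = 0.0386 in limma). The 12 measured targets of NRF2, the factor that drives oxidant defence and is known to act on ME1, had 8.22, 7.76 and 7.81 in X5050 and 8.28, 7.87 and 7.73 in DMSO cultures. Of these 0 passed with the block, and those with the smallest p were the quinone reductase NQO1 (-0.74, adjusted p = 0.0523 in limma) and GCLC, the catalytic subunit of glutathione's first synthetic step (0.49, adjusted p = 0.0709 in limma). These lie in opposite directions. Both list means were highest in culture 1 under either treatment, as ME1 was, but in X5050 cells they were lowest in culture 2, where ME1 was lowest in culture 3. The part of other cells or of NRF2 in the ME1 values was not tested.

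Neither elongase among the 10 genes passed. ELOVL6, which extends palmitate to stearate, had 8.63, 8.48 and 8.55 in X5050 and 9.03, 8.94 and 8.61 in DMSO cells. The groups overlapped by X5050 culture 1 against DMSO culture 3. The change was -0.30 (95% interval -0.55 to -0.063, adjusted p = 0.227 in limma), with -0.39, -0.46 and -0.060 in the 3 cultures. ELOVL5, which extends polyunsaturated chains, had 11.19, 10.84 and 10.93 in X5050 and 11.26, 11.09 and 10.90 in DMSO cells. It showed the smallest change of the 10 (-0.096, 95% interval -0.31 to 0.12, adjusted p = 0.724 in limma), and culture 3 lay on the other side of 0 (0.025). The change of ELOVL6 was lower than that of ELOVL5 by a mean of -0.21 ± 0.12 (SD, n = 3).

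Of the 3 desaturases among the 10 genes, FADS2 had the largest change and FADS1 the smallest. FADS2, which introduces the delta-6 double bond, had signals of 9.10, 8.78 and 8.88 in X5050 cultures and 9.70, 9.75 and 9.79 in DMSO cultures. The DMSO arrays were nearly equal and all 3 X5050 values stood well below them. The mean decrease was 1.77-fold (log2 change -0.83, SE 0.10 with the block, limma adjusted p = 0.0322). It ranked 21st of 19460 by p with the block and 2nd without it, although that adjusted p was 0.172.

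FADS1, which introduces the delta-5 double bond further along the chain, had 10.50, 10.39 and 10.51 in X5050 and 10.66, 10.68 and 10.65 in DMSO cells. The groups did not overlap, at a small distance: the DMSO SD of 0.015 was exceeded by that of 98.8% of probe sets. The change was -0.20 (1.15-fold, 95% interval -0.40 to 0.0045, adjusted p = 0.352 in limma). FADS1 and FADS2 are neighbours on chromosome 11 that are read in opposite directions, with RefSeq spans that overlap by 801 bases, and the change of FADS2 was lower than that of FADS1 by 0.44, 0.68 and 0.77 log2 units in cultures 1, 2 and 3 (written as FADS2 minus FADS1, -0.44, -0.68 and -0.77).

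SCD, the delta-9 desaturase that turns stearate to oleate, had 10.61, 10.19 and 10.37 in X5050 and 11.03, 10.84 and 10.76 in DMSO cells. No X5050 value reached the DMSO range. The change was 1.40-fold downward (-0.49, 95% interval -0.70 to -0.27), and it did not pass (adjusted p = 0.0738 in limma with the block, 0.353 without) but did with the trended, robust prior (adjusted p = 0.0172 in limma). Against FADS2 its change was higher by 0.34 ± 0.17 (SD, n = 3). For each of the 5 differences between members given here (ACACA and ACLY, FASN and ACACA, ELOVL6 and ELOVL5, SCD and FADS2, FADS2 and FADS1) a two-sided exact permutation test over the 6 arrays gave p = 0.1, the smallest that 3 against 3 arrays allow, and an adjusted p of 0.1 over the 5. That test shuffles the arrays without regard to culture and could not have passed whatever the values, so the 5 differences are given as descriptions.

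PNPLA3, an acyltransferase and lipase of lipid droplets whose gene is a known SREBP target in liver, had 5.61, 5.17 and 5.30 in X5050 and 6.16, 5.98 and 5.88 in DMSO cells. The groups did not overlap. The mean decrease was 1.56-fold (log2 change -0.65, SE 0.095 with the block, limma adjusted p = 0.0423, 0.314 without it). Its X5050 mean of 5.36 was near the lower quartile of all probe sets, so it was a dim probe set. After another quantile normalization the calls of PNPLA3 (adjusted p = 0.0517 in limma) and ME1 (0.0562) were lost and that of FADS2 remained (0.0386).

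**Figure D2:**
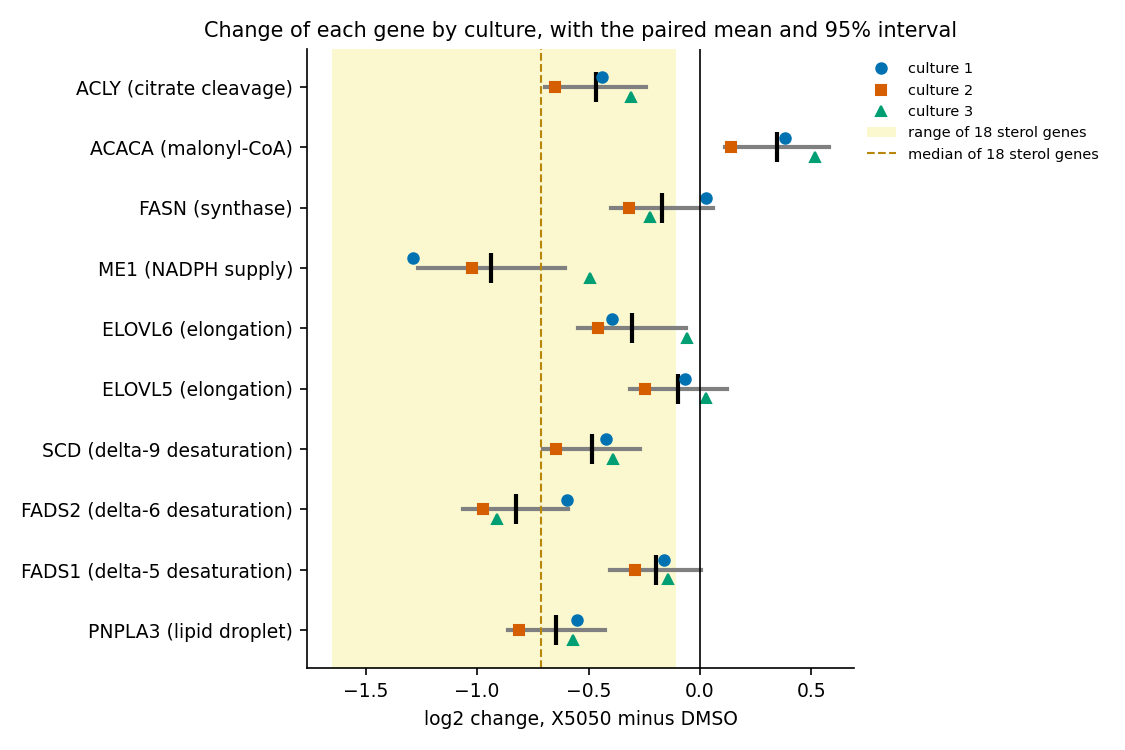
Log2 change (X5050 minus DMSO) of the 10 genes, with a symbol per culture, a black mark at the mean and a grey bar for the paired 95% interval. The shaded band is the range of the 18 sterol genes (-1.65 to -0.11) and the dashed line their median (-0.71). TM7SF2 alone sets the band's upper end, and the next sterol gene is PMVK (-0.24). FADS2, ME1 and PNPLA3 lie around the dashed line, ACLY and SCD between it and 0, ELOVL5 just beyond the band's upper end, and ACACA on the other side of 0.

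The sterol genes were used as the yardstick for these steps. Of 24 listed 18 were measured, all 18 were lower on average, and 11 fell with the block. They ran from DHCR7 (-1.65), NSDHL (-1.21) and HMGCS1 (-1.18) to MVK (-0.26), PMVK (-0.24) and TM7SF2 (-0.11). All of these encode enzymes of the mevalonate and cholesterol pathway. The change of FADS2 differed from the sterol median of its own culture by 0.058, -0.054 and -0.35, and that of PNPLA3 by 0.10, 0.11 and -0.0092. ME1 differed by -0.63, -0.11 and 0.069. These 3 genes stood at 1.16, 0.904 and 1.31 times the sterol median in the order FADS2, PNPLA3 and ME1.

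ACLY and SCD changed by less than the sterol median in every culture. ACLY was 0.21, 0.27 and 0.25 above it, and SCD 0.23, 0.27 and 0.17 above it. ELOVL6 was 0.26, 0.46 and 0.50 above it and FADS1 0.50, 0.63 and 0.42. FASN and ELOVL5 were further off, at 0.68, 0.60 and 0.34 and at 0.59, 0.67 and 0.59. ACACA was 1.04, 1.06 and 1.08 above the sterol median of its culture. With ELOVL5 it was 1 of the 2 genes outside the range of the sterol genes. The upper end of that range was TM7SF2 alone (-0.11, adjusted p = 0.717 in limma), whose X5050 and DMSO values overlapped. FASN (-0.17) and FADS1 (-0.20) lay between TM7SF2 and the next sterol gene, PMVK (-0.24). The distances from the sterol median describe the samples and were not tested.

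The genes whose signal over the 6 arrays was most like that of a member set FADS2 and ME1 apart. Likeness was the root mean square difference in log2 signal after each gene was centred on its own mean, over 13834 other genes at or above the lower quartile in brightness. The 3 nearest to FADS2 were FDPS, the farnesyl diphosphate synthase (0.058), ERG28, in yeast a scaffold of sterol enzymes (0.075), and ACAT2, which joins acetyl-CoA units (0.12), where FADS2 itself varied by 0.43 about its mean. Their changes were -0.75, -0.74 and -0.91. Being picked for likeness to FADS2 over these same arrays, they had to fall as it did, so their falls are no separate result. The 3 nearest to ME1 were MAMDC2 (0.15), NQO1 (0.20) and CCN2, a secreted matrix protein (0.21), against 1.001 for ME1 itself. Their choice by likeness likewise fixed a spread between cultures close to that of ME1. CCN2 had 8.48, 7.45 and 7.17 in X5050 and 10.07, 8.52 and 7.89 in DMSO cultures.

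PNPLA3 was nearest to IDI1, the isopentenyl diphosphate isomerase (0.066), SRM, the spermidine synthase (0.077), and CYB5B, an outer mitochondrial cytochrome b5 (0.078). SCD was nearest to PKM, the pyruvate kinase (0.029), SRM (0.030) and ACLY (0.033), at 0.28 for SCD itself. So ACLY and SCD, at different steps, were within a small distance of each other on every array. Likeness here includes the change with X5050, and it is a description of 6 arrays.

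**Figure D3:**
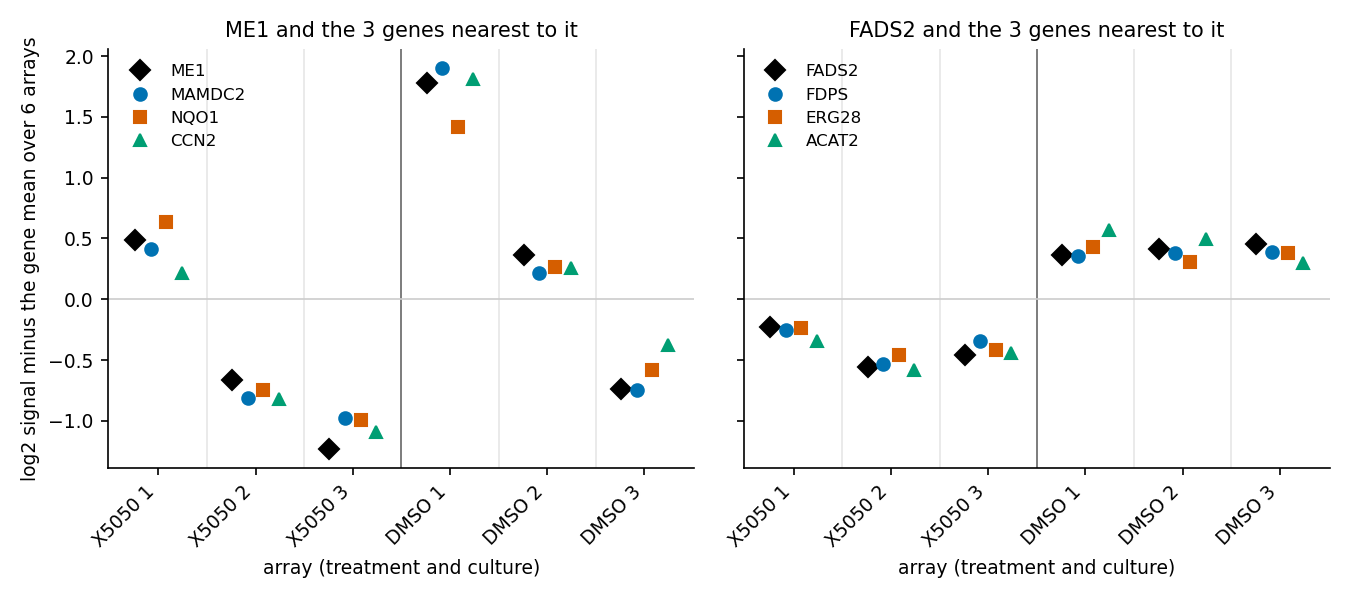
Log2 signal, minus the gene's mean over 6 arrays, for ME1 (left) and FADS2 (right) with the 3 nearest genes of each, X5050 arrays left of DMSO arrays. The ME1 group is highest in culture 1 under both treatments, while in the FADS2 group every X5050 point lies below every DMSO point of the same gene. Both groups were chosen by likeness over these same arrays.

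The nearest gene to FADS2 was FDPS, and those to ME1 were MAMDC2, NQO1 and CCN2, in that order. Promoter windows are shown for FADS2, for ME1, and for SCD and ACLY, which had close profiles. Each is the 250 bases before an annotated start in RefSeq (GRCh38.p14), 5′ to 3′ on the gene's strand, and capitals mark the motifs named below. A window was held for 8 of the 10 genes, and FASN and PNPLA3 had none here. The windows lie at chr10:100346983-100347232 (plus strand) for SCD, chr17:41919023-41919272 (minus) for ACLY, chr11:61815953-61816202 (plus) for FADS2 and chr6:83431052-83431301 (minus) for ME1.
SCD: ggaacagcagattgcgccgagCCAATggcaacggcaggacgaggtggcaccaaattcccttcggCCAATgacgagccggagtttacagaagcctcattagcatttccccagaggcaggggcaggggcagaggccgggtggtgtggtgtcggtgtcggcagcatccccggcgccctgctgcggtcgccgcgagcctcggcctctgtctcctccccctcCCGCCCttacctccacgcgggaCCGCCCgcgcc
ACLY: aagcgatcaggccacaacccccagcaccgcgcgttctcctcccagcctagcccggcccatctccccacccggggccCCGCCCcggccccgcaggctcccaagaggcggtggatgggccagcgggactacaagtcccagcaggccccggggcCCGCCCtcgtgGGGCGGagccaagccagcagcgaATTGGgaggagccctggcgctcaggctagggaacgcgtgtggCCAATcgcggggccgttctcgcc
FADS2: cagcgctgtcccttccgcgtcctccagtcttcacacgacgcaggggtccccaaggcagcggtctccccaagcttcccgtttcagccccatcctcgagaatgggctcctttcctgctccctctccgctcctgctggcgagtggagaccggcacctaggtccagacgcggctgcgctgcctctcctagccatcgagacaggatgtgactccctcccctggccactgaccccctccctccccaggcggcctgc
ME1: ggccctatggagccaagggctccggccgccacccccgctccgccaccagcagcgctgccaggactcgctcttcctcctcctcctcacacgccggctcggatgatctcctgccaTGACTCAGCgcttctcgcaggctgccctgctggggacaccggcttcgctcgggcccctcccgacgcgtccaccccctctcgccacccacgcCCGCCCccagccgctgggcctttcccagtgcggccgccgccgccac

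The motifs were searched on both strands, and a gene counted if any of its windows held one. The NF-Y box CCAAT occurred in 4 of the 8 genes (ACLY, ACACA, ELOVL5 and SCD), in 14 of 16 sterol genes with a window, and in 37.0% of 27305 genes. SCD held it from 229 to 225 and from 186 to 182 bases before the start, and ACLY from 65 to 61 and from 23 to 19. The GC box GGGCGG occurred in 7 of 8, in 15 of 16 sterol genes and in 46.2% of all, and neighbouring copies overlapped in ACACA. The core TGACNNNGC of antioxidant elements occurred in 1 of the 8, ME1 (TGACTCAGC from 137 to 129 bases before the start), in 1 of 16 sterol genes and in 13.2% of all. The E-box CACGTG, a core that carbohydrate-responsive factors bind, occurred in ELOVL5 alone of the 8, in 2 of 16 sterol genes and in 7.73% of all. A sterol element core written as TCACNCCAC was in 0 of the 8, in 0 of the 16 sterol genes and in 1.09% of all, so these letters were not in these windows. The FADS2 window shown held none of the 5 motifs, and its other window, for a second start, held 1 GC box.

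The regulators of the pathway were measured at the RNA level only. SREBF2 had 7.02, 6.99 and 7.34 in X5050 and 7.62, 7.69 and 7.77 in DMSO cells, without overlap, and fell by 0.58 (1.49-fold, adjusted p = 0.0488 in limma, 0.282 without the block). SREBF1 had 5.86, 5.88 and 5.99 in X5050 and 5.89, 5.73 and 6.02 in DMSO cells, with full overlap (0.028, 95% interval -0.18 to 0.24, adjusted p = 0.934 in limma). The mean signal of SREBF1 was 5.90, below the median of 6.26 over the tested probe sets, where that of SREBF2 was 7.41. Neither a change nor equal levels of SREBF1 could be told. So the 2 SREBP genes differed in their values, and this difference was not tested. MLXIPL, the carbohydrate-responsive factor that also acts on ACACA and FASN, had a mean change of 0.00077 (95% interval -0.32 to 0.32). By culture its change was -0.39, 0.010 and 0.39, on a dim probe set (mean signal 5.35). So neither a change nor equal levels of MLXIPL could be told. RNF145, a ubiquitin ligase, did not pass (0.70, adjusted p = 0.0555 in limma), with X5050 values of 9.04, 8.75 and 9.04 all above the DMSO values of 8.13, 8.38 and 8.24. INSIG1, the sterol-sensing retention protein of the SREBPs and also in the sterol list, fell by 1.05 (2.07-fold, adjusted p = 0.0126 in limma).

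Beyond the 10 genes, 107 of 118 other genes of fatty acid metabolism and its regulation were measured, of which 3 fell and 0 rose with the block, and 0 passed without it. The 3 were INSIG1, SREBF2 and CYB5B. The median change of the 107 was -0.00083, with 54 lower and 53 higher. CYB5B, the outer mitochondrial cytochrome b5, was the only 1 of 8 genes listed under further desaturation that passed (-0.63, adjusted p = 0.0368 in limma). A cytochrome b5 is not itself a desaturase, so no desaturase of that list passed. CYB5B had 9.83, 9.61 and 9.52 in X5050 and 10.39, 10.28 and 10.19 in DMSO cells, without overlap. The other cytochrome b5 of that list, CYB5A, did not pass (-0.026, adjusted p = 0.936 in limma). Nor did the cytochrome b5 reductases CYB5R3 (-0.20, adjusted p = 0.356 in limma) and CYB5R1 (0.28, adjusted p = 0.266 in limma).

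In the lists of supply, synthesis, further elongation, droplets and breakdown 0 genes passed with the block. Of 7 precursor supply genes 6 were lower, with the mitochondrial citrate carrier SLC25A1 at -0.19 and the citrate synthase CS at -0.16. The 7 other NADPH genes had a median of -0.099, with ME3 at -0.14 and MTHFD1 at -0.15, so the size of the ME1 change was not seen in the other malic enzymes, ME2 (0.10) and ME3, or in the rest of that list, whose changes ran from -0.15 to 0.10. Among 12 genes of carboxylation, synthesis and activation DBI, an acyl-CoA binding protein, stood at -0.23 and ACSL6, an acyl-CoA synthetase, at 0.23. Of 10 further elongation genes ELOVL1 stood at -0.45 (adjusted p = 0.0832 in limma) and ELOVL4, which makes very long chains, at 0.35 (adjusted p = 0.154 in limma).

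Of 18 glycerolipid and droplet genes 10 were lower, with the droplet proteins HILPDA at -0.45 and CIDEB at -0.24. The PNPLA3 change was larger than any in that list. Of 23 beta oxidation genes, which break fatty acids down, 13 were higher, with a median of 0.042 and with CPT1C, a brain carnitine palmitoyltransferase relative, at 0.36 and HADHB, of the mitochondrial trifunctional protein, at 0.27. The 8 measured targets of LXR, the oxysterol receptor that also acts on SREBF1 and SCD, had a median of 0.095, with the cholesterol exporters ABCA1 at 0.31 and ABCG1 at 0.18, and 0 of the 8 passed (adjusted p = 0.171 and 0.523 for these in limma).

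**Figure D4:**
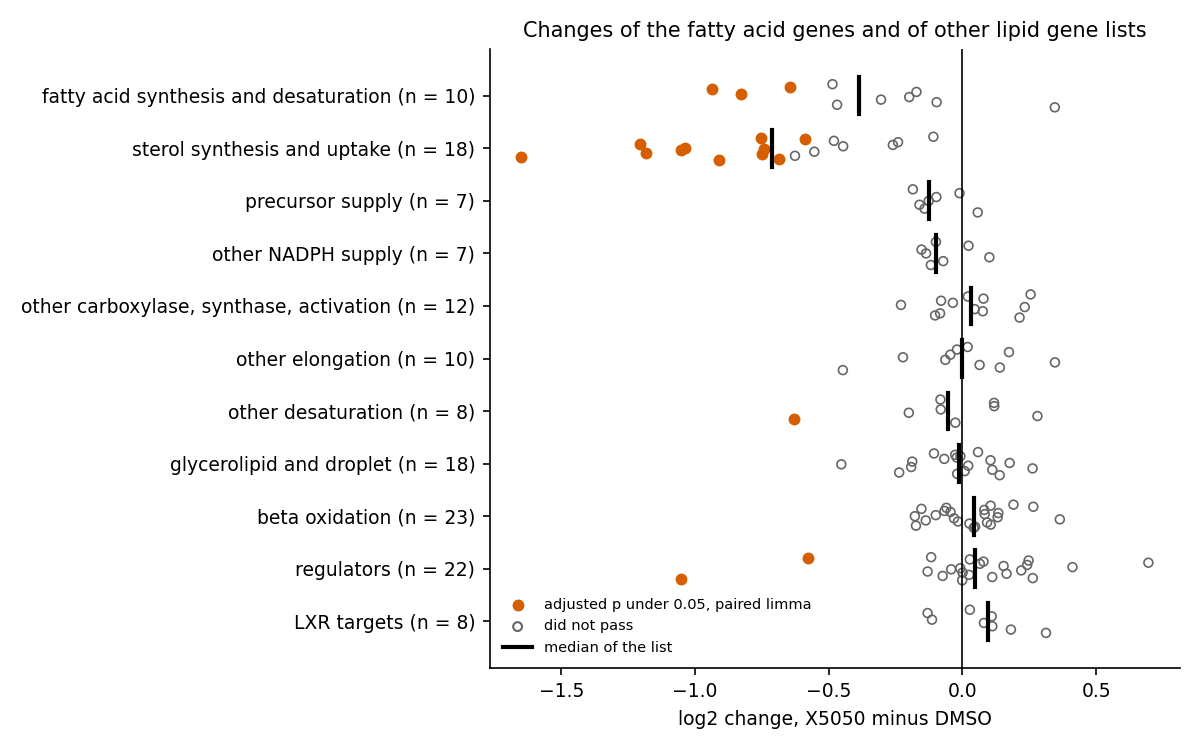
Log2 change (X5050 minus DMSO) of each measured gene, by list, with filled points for genes past an adjusted p of 0.05 in the paired limma fit and a bar at each list's median. Filled points lie in the fatty acid genes (3), the sterol genes (11), other desaturation (1, CYB5B) and the regulators (2, INSIG1 and SREBF2), and all of them are below 0.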

How the data were processed

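Per the labels' protocols, 100 ng of total RNA per sample went into Affymetrix whole-transcript labelling and each sample had an array of its own. The authors deposited log2 values for every probe set, made with RMA and Partek per the submitters' processing notes, with versions and settings not given in the sources used here. Of 33297 probe sets, 19460 had 1 gene symbol and were tested, 1754 had several and 12083 were not in the platform annotation used. No detection call was used, and the number of arrays limits the precision.

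The effect of X5050 against DMSO was fitted in limma 3.58.1 (R 4.3.3, lmFit and eBayes, two-sided) with the replicate number as a block and Benjamini-Hochberg adjustment over the 19460 probe sets. The paired form was set with the choice of genes, and the design text, which gives 3 independent cultures treated with either, was read as each culture supplying both samples. After subtraction of group means, X5050 and DMSO arrays of the same number had correlations of 0.365, 0.297 and 0.255 over probe sets, and other pairs -0.236 to -0.052. That subtraction forces negative values among the other pairs once same-number pairs are positive, so the negative values are not separate evidence for the pairing. The paired fit has 2 residual degrees of freedom and the unblocked fit 4, before pooling over genes. An SE called paired is from the blocked fit.

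Members, lists, motifs and tests were chosen with earlier results of these data known. All 10 genes are named, with SREBF1, SREBF2 and MLXIPL. Of other lists the text names genes past the threshold, or otherwise the 2 with the smallest paired p, of the sterol list the 3 largest and 3 smallest changes, and for the 4 members with the smallest p the 3 nearest genes. SOX2, ME2, RNF145, CYB5A, CYB5R3 and CYB5R1 were named outside this rule, after their values were seen. The alternatives were no block, median centring, another quantile normalization, a filter on dim probe sets, all probe sets, the mean of a gene's probe sets, another variance prior, and leaving out each culture or array. The fit was tested on simulated data. Promoter windows came from RefSeq. SciPy 1.17.1 gave the exact tests and matplotlib 3.10.9 the plots.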

Additional observations from a re-analysis of the deposited data

How the results depend on the processing

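With the replicate block 3 members, 11 sterol genes and 3 other pathway genes passed. With no replicate block 0, 0 and 0 passed, and with all probe sets of the table in the fit 0, 0 and 0 did, though the changes themselves are then the same. After another quantile normalization 1 member passed (FADS2), and with the trended, robust prior 5 did. With 1 culture or array left out the counts ranged from 0 to 3 for the members, 0 to 12 for the sterol genes and 0 to 5 for the other pathway genes, and without culture 3 each was 0. Over all probe sets 37 rose and 60 fell with the block, against 0 and 0 with no replicate block or with all probe sets of the table, 18 and 33 after another quantile normalization, 66 and 72 with dim probe sets left out, 52 and 69 with a mean per gene, and 118 and 147 with the trended, robust prior. Without culture 1 they were 113 and 233, without culture 2 they were 41 and 40, and without culture 3 they were 0 and 0. The cause of these changes was not tested. Over 16 alternatives no member changed sign, and the median change of the members, -0.39 with the block, ranged from -0.48 to -0.25, the smallest in size without DMSO replicate 1. ME1 ranged from -1.54 to -0.28, FADS2 from -0.94 to -0.75, PNPLA3 from -0.77 to -0.55, ACACA from 0.22 to 0.45, FASN from -0.28 to -0.090 and ELOVL5 from -0.20 to -0.0079. The calls were lost in 9 alternatives for FADS2, 11 for ME1 and 11 for PNPLA3, and gained in 1 each for ACLY and SCD. In fits that leave 1 array out, the group left with 2 arrays shares its estimate of spread with the other.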
